A study of Mus musculus with 4 samples.

Results

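The collagen genes of the mouse colon were examined as a family: every gene in the deposited feature lists whose symbol has the form of Col, a type number, a and a chain number. The rule found 44 genes among 29897 genes in all, and each of the 44 was listed in all 4 libraries. They were followed across fibroblast types, mural cells, visceral smooth muscle, glia and endothelial cells, and between control mice and mice dosed with the hepatotoxin carbon tetrachloride (CCl4), which scars the liver. The series holds 4 single-cell RNA libraries of enzymatically digested colon, 2 labelled control and 2 labelled CCl4. For the CCl4 arm the design text describes SPF mice, 6 weeks old, and a CCl4 course of 6 weeks; age and schedule for the controls, and strain, sex and the number of mice per library for both arms, are not given in the sources used here. Nothing in the labels states that the 2 libraries of a group came from separate animals, and the p-values below then reflect library-to-library spread alone, possibly technical.

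Collagens are secreted or membrane-bound proteins whose chains carry long runs of Gly-X-Y triplets and wind into triple helices. Fibrillar collagens (types I, III and V among them) build the cables of connective tissue, type IV forms the sheet of basement membranes, type VI forms beaded filaments around cells, fibril-associated collagens decorate the cables, and the multiplexins, types XV and XVIII, lie at basement membrane borders. In the gut wall fibroblasts are the best-known source of fibrillar collagen, while the basement membranes under epithelium and around vessels, nerves and muscle are built with chains from several cell types. Prolyl and lysyl hydroxylases modify the chains, the chaperone HSP47 (Serpinh1) helps them fold in the endoplasmic reticulum, and lysyl oxidases crosslink them outside the cell.

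Several chains of type IV collagen lie head to head in the genome, and their levels are set side by side below. Positions are on GRCm38. Col4a1 and Col4a2 on chromosome 8 point away from each other, and their annotated starts lie 21 bases apart with overlapping first exons. Col4a5 and Col4a6 on chromosome X also point apart, with starts 1309 bases from each other, and Col4a3 and Col4a4 on chromosome 1 have starts 72 bases apart. The sequences shown are the stretch between the Col4a1 and Col4a2 starts and the 120 bases before the RefSeq starts of Col4a6 and Col4a5. Each is from RefSeq on GRCm38.p6. A GC box is in capitals, printed as GGGCGG, or as CCGCCC where the box reads GGGCGG on the opposite strand.
Col4a1 and Col4a2 shared start, chr8:11312805-11312826, plus strand: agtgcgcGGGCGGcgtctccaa
Col4a6 upstream, chrX:141474077-141474196, minus strand: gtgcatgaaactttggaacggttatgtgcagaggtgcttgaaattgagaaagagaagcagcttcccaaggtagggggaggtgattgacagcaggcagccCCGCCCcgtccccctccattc
Col4a5 upstream, chrX:141475265-141475384, plus strand: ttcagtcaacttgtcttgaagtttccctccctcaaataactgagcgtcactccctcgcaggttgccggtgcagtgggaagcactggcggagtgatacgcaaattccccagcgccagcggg
A GC box was found in 26.477% of 32851 promoter windows of 120 bases, and in any window of 18 of the 35 collagen genes in the table. The share counts windows while the collagens are counted as genes, which may have several windows each, so the values are not compared. The Col4a5 window held none of these letters, which says only that they are absent from those bases.

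Control files held 10021 and 10038 barcodes and CCl4 files 13986 and 12464, with 55834301 to 92383719 counts per library. After filters on genes, mitochondrial counts and doublets, the libraries kept 8103 and 8245 (control) and 10382 and 9791 (CCl4) cells. Mitochondrial genes took a median of 6.05% and 5.65% of counts per barcode in control libraries against 10.7% and 9.08% with CCl4, so this sign of cell quality moved with the groups, and its part in the results was not tested beyond a stricter filter on cells. Barcode names are running numbers and recur between libraries, and 0 count profiles were identical in 2 libraries. Cell classes were rebuilt here by clustering without the collagen genes and named from marker genes; each name stands for cells like that type. The lamina propria-like fibroblasts (Adamdec1, Fgf10) numbered 646, 686, 685 and 672 cells in control libraries 1 and 2 and CCl4 libraries 1 and 2, the order used throughout. Crypt-associated fibroblasts with high Pdgfra numbered 233, 215, 285 and 275, adventitial-like fibroblasts (Pi16, Has1) 356, 299, 348 and 290, and submucosal-like fibroblasts (Ackr4, Grem1) 652, 665, 349 and 294. Fibroblasts in a pair of further clusters stay unnamed and are called by their leading genes, Stc2 Dner and Apod Ptn. Levels are CPM, counts scaled to a library's total over all genes in a class, so the order of classes for 1 gene can be read, while levels of different genes are not compared, because gene length and capture differ. Class against class is a description with no test, since the classes come from these same cells.

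Of the 44 collagens, 25 reached 100 CPM in at least 1 of 11 stromal classes, 7 lay between 10 and 100 CPM at their highest, and 12 stayed under 10 CPM in every stromal class. Summed over the 44 genes, collagens made up 21320 CPM in crypt-associated fibroblasts, 20090 in lamina propria fibroblasts and 11940 in the Apod Ptn cluster, the lowest of the 6 fibroblast types. Glia held 5841 CPM (5670 to 6043 over the libraries) and visceral smooth muscle 5451 (4613 to 6555), against 2896 in blood endothelial cells, 2028 in mural cells, 1953 in lymphatic endothelial cells and 136 in T cells. The makeup of these sums, as a share of collagen counts and not per length, differed by class. Type IV chains took 56.7% of the collagen counts of blood endothelial cells and the fibrillar group 4.2%, while fibrillar collagens took 58.8% in smooth muscle, 39.3% in mural cells and 36.8% in glia.

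**Figure D1:**
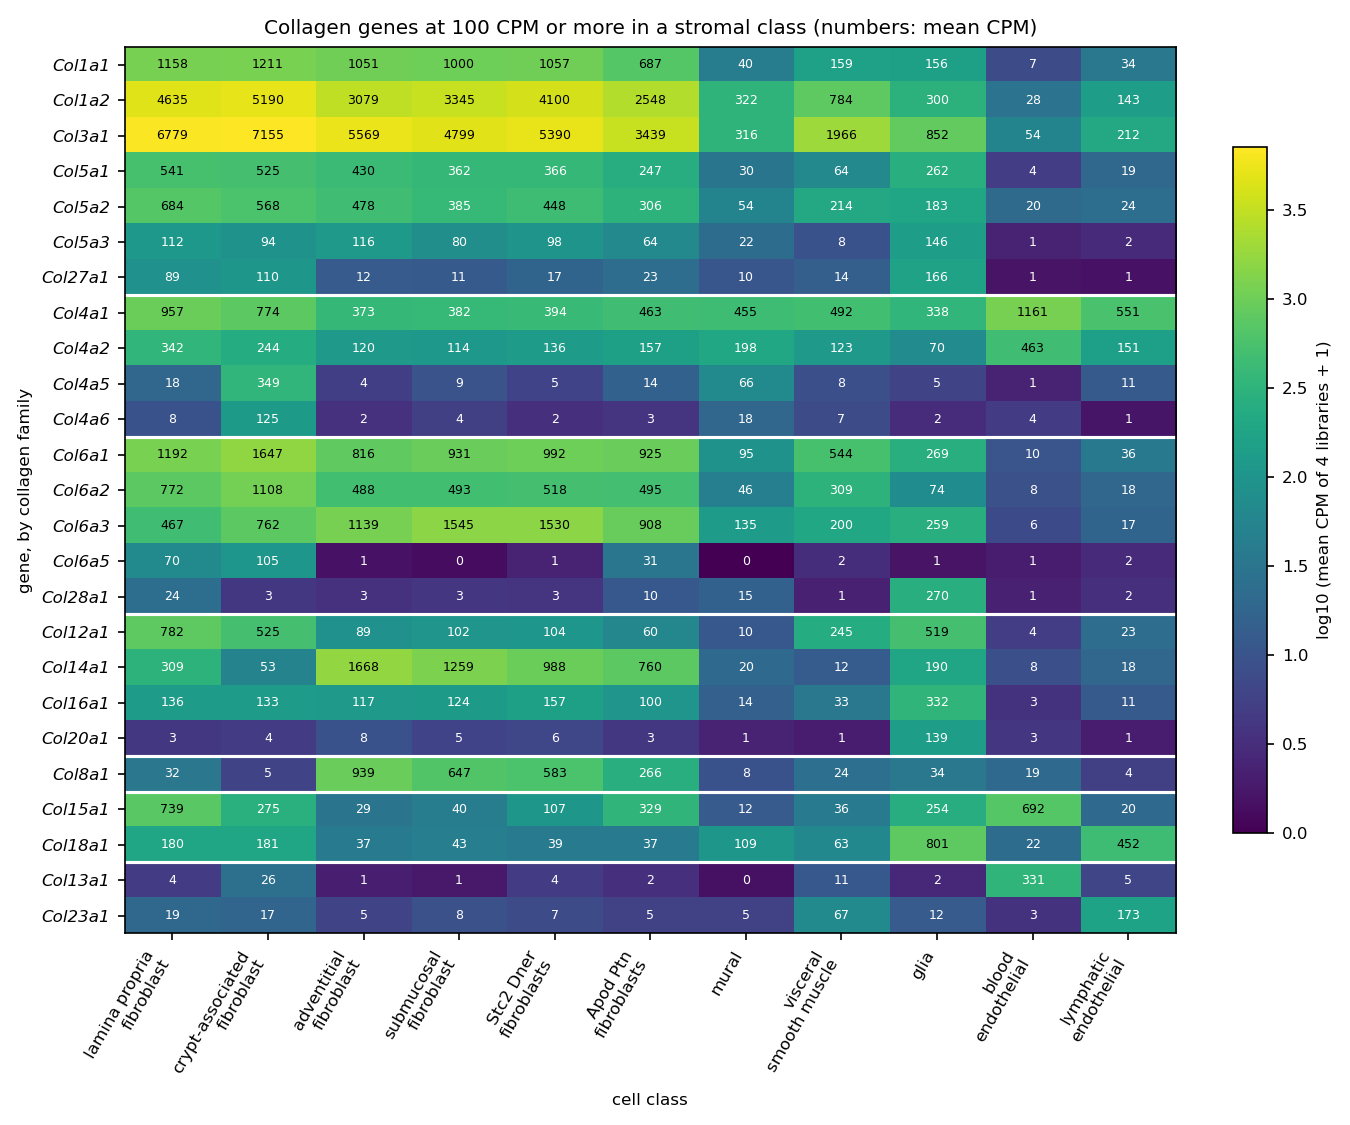
Mean level of the 25 collagen genes that reached 100 CPM in a stromal class; each row is a gene grouped by family, each column a cell class, the printed number is the mean CPM over 4 libraries and the colour its log10 after adding 1. Fibrillar and type VI genes are bright across the 6 fibroblast columns at the left, Col28a1, Col20a1 and Col18a1 peak in glia, and Col13a1 reaches 331 CPM in blood endothelial cells and no more than 26 CPM in any other column.

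By class mean the type I chains were highest in mucosal fibroblasts. Col1a1 (chr11:94936224-94953042, plus strand), which encodes the alpha-1 chain, was at 1057, 1353, 1258 and 1179 CPM in crypt-associated fibroblasts and at 974.9, 1223, 1213 and 1222 CPM in lamina propria fibroblasts. These libraries overlapped between both classes, so the order of the 2 is not settled. Col1a2 (chr6:4504814-4541544, plus strand), the alpha-2 chain, stood at 4562, 5472, 5291 and 5434 CPM in crypt-associated fibroblasts against 4264, 4505, 4890 and 4882 CPM in the lamina propria. Here too the ranges met. Col3a1 (chr1:45311538-45349706, plus strand), the type III chain of fine reticular fibrils, was at 6495, 6787, 7476 and 7863 CPM in crypt-associated and 6512, 6378, 6907 and 7317 CPM in lamina propria fibroblasts. In the Apod Ptn cluster the means were 687 CPM for Col1a1, 2548 for Col1a2 and 3438 for Col3a1, the lowest of the fibroblast types for each gene.

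The crypt-associated class held 2 clusters that differed widely in these genes. One, led by Procr, Tagln and Wif1, had 494 cells, and the other, led by Agt, Emid1 and Wnt4, had 514. Col3a1 was at 4158, 3463, 3573 and 3844 CPM in the first and at 9505, 9943, 9738 and 10490 CPM in the second, with no overlap. Col1a1 ranged from 744.4 to 814.1 CPM in the first and from 1369 to 1903 in the second. Col1a2 ranged from 3926 to 4376 CPM in the first and from 5253 to 6940 in the second. Col15a1, a multiplexin, ranged from 7.459 to 57.39 CPM in the first and from 423.4 to 561.8 in the second. Col6a5 showed the same order, 6.704 to 22.62 CPM against 103.6 to 231.3, and Col6a4 0 to 21.26 against 103.9 to 183.6. Col4a5 ran the other way: 412.4, 387.9, 522.9 and 554.3 CPM in the Procr Tagln Wif1 cluster and 284.7, 276.2, 253.8 and 228 CPM in the Agt Emid1 Wnt4 cluster.

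**Figure D2:**
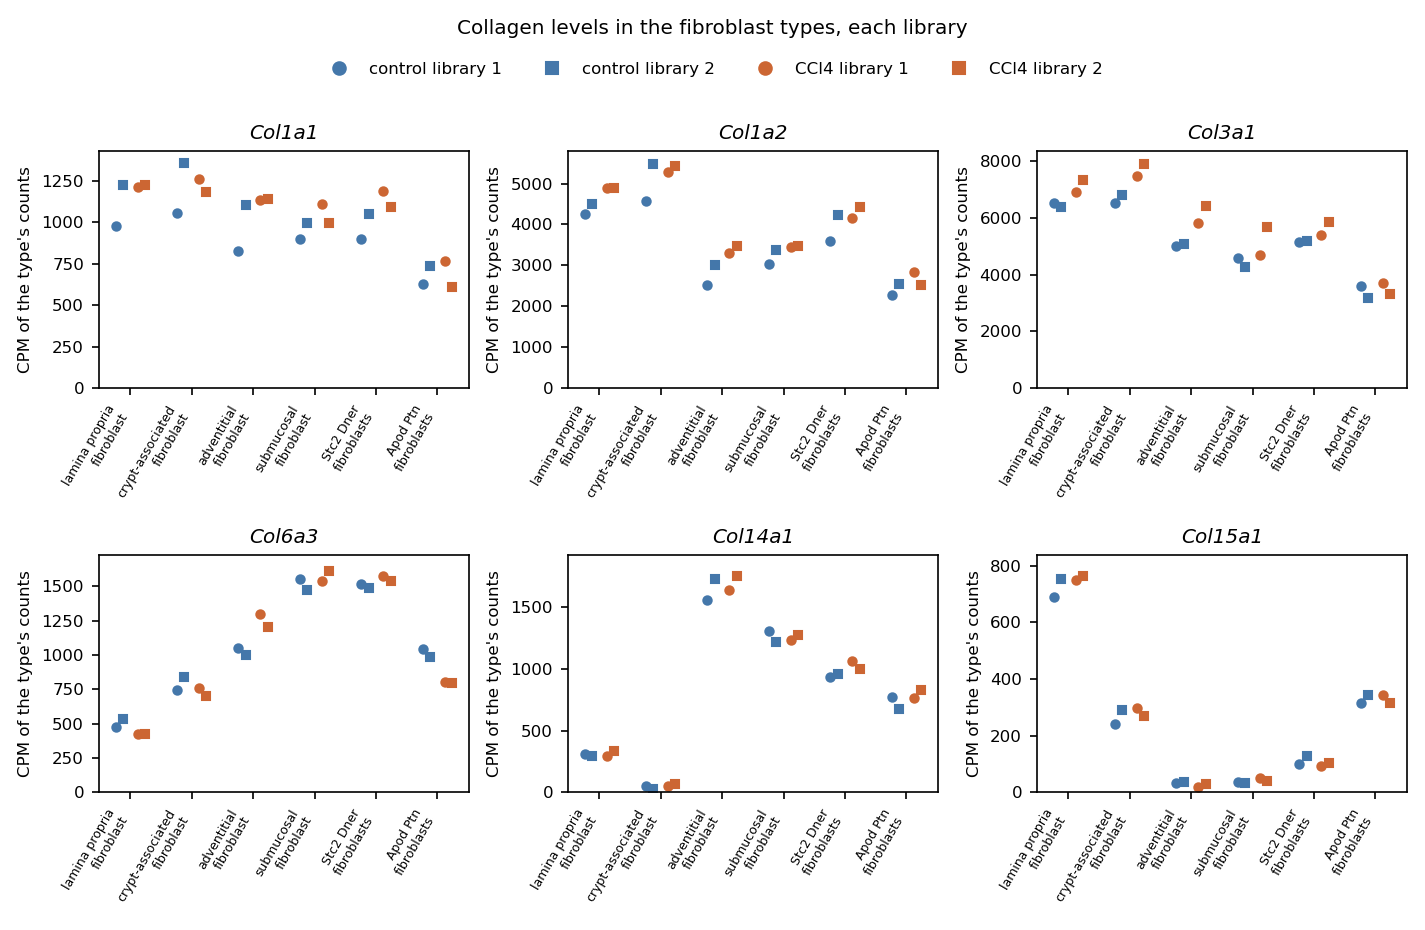
Levels of 6 collagen genes in the 6 fibroblast types; each point is 1 library (blue control, orange CCl4, circles library 1 and squares library 2) and the vertical axis is CPM from 0. Col15a1 is highest in the lamina propria, Col14a1 in the adventitial type, and Col6a3 in the submucosal and Stc2 Dner types.

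Type V chains, which nucleate and thin the fibrils, were also mainly fibroblast genes. Col5a1 was at 548, 598.3, 518.1 and 500.5 CPM and Col5a2 at 668.6, 649.1, 731.8 and 688.5 CPM in lamina propria fibroblasts. Col5a3 differed in that its highest mean lay in glia, at 151.5, 199.7, 121.2 and 111 CPM, although these libraries overlapped with adventitial fibroblasts (mean 116 CPM). Col27a1, a fibrillar chain known from cartilage, was at 162.4, 195.7, 159.1 and 148.7 CPM in glia and at 94.53 to 119.7 CPM in crypt-associated fibroblasts, with no overlap.

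The type IV chains split into pairs. Col4a1 and Col4a2, the chains of the ubiquitous network, were highest in blood endothelial cells: Col4a1 at 1108, 1135, 1127 and 1274 CPM and Col4a2 at 438.5, 465.6, 428.2 and 518.8 CPM. Lamina propria fibroblasts came next for Col4a1, at 913.7 to 1005 CPM, below every endothelial library. Col4a5 and Col4a6, whose chains form a distinct network in smooth muscle and some epithelial basement membranes, were highest in crypt-associated fibroblasts: Col4a5 at 356.6, 330.6, 352.5 and 357 CPM and Col4a6 at 163.9, 116.3, 132.8 and 86.8 CPM. Mural cells held 61.9, 71.39, 77.96 and 53.38 CPM of Col4a5, and visceral smooth muscle 9.303 CPM or less. Across the 11 class means, on log2 of CPM plus 1, Pearson's r was 0.94 for Col4a1 with Col4a2, 0.86 for Col4a5 with Col4a6 and 0.22 for Col4a3 with Col4a4; the classes share libraries and free RNA, so these are descriptions. Col4a3 stayed at or under 7.878 CPM in the stroma, and Col4a4 had a mean of 45.9 CPM in glia and of 6.87 CPM or less in the other classes. The ratio of Col4a1 to Col4a2 counts, which cancels gene length when classes are compared, ran from 2.438 to 2.633 over the endothelial libraries and from 2.803 to 3.652 in crypt-associated fibroblasts.

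Type VI collagen is assembled from the alpha-1 and alpha-2 chains and a further chain, most often alpha-3. Col6a1 was at 1512, 1687, 1727 and 1662 CPM and Col6a2 at 1021, 1253, 1061 and 1099 CPM in crypt-associated fibroblasts. Both were above the lamina propria (means 1192 and 772 CPM). Col6a3 (chr1:90765923-90843971, minus strand) had another order: 1557, 1473, 1540 and 1610 CPM in submucosal fibroblasts and 1514, 1487, 1579 and 1541 in the Stc2 Dner cluster, which overlapped, against 467 CPM on average in the lamina propria. As a count ratio, Col6a3 to Col6a1 had a mean of 1.66 in submucosal and 0.392 in lamina propria fibroblasts. Col6a5, which can take the place of alpha-3, was at 81.36, 125.9, 142.7 and 71.59 CPM in crypt-associated and 70 CPM on average in lamina propria fibroblasts, and at means of 0.563, 0.347 and 1.43 CPM in adventitial, submucosal and Stc2 Dner fibroblasts. Col6a4 had a mean of 76.1 CPM in crypt-associated fibroblasts and 44 CPM in smooth muscle.

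The fibril-associated collagens were highest in different classes. Col12a1, which sits on type I fibrils in tissues under load, was at 706.6, 775.3, 829.2 and 814.9 CPM in lamina propria fibroblasts, at 482.5, 489.9, 569.9 and 532.2 CPM in glia, and at 84.65 to 92.75 CPM in adventitial fibroblasts. Col14a1, its close relative, ran nearly opposite: 1555, 1729, 1637 and 1750 CPM in adventitial and 1218 to 1308 CPM in submucosal fibroblasts, against 295.4 to 334.6 CPM in the lamina propria and a mean of 53 CPM in crypt-associated fibroblasts. Col8a1, a short-chain collagen of vessel walls, followed Col14a1 in its order of fibroblast types, with 876.5, 850.9, 984.5 and 1045 CPM in adventitial fibroblasts and 20.54 to 39.48 CPM in the lamina propria.

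The multiplexins divided the vessels. Col15a1 (chr4:47208161-47313167, plus strand) was at 690, 754, 748.2 and 763.5 CPM in lamina propria fibroblasts and at 662.2, 706.6, 693 and 704.4 CPM in blood endothelial cells, which overlapped. Lymphatic endothelial cells held a mean of 20 CPM of it. Col18a1, the source of endostatin, was at 803.7, 811.1, 798.1 and 789.6 CPM in glia, at 490.2, 506.6, 455.6 and 355.2 CPM in lymphatic endothelial cells, and at a mean of 22 CPM in blood endothelial cells. The membrane collagens followed the same border: Col13a1 was at 328.2, 333.3, 333.4 and 329.8 CPM in blood and a mean of 5 CPM in lymphatic endothelial cells, while Col23a1 was at 241.6, 168.9, 131.4 and 150.7 CPM in lymphatic and 3 CPM in blood endothelial cells. Within blood endothelial cells Col13a1 differed by cluster: the libraries of the Kdr Exoc3l2 cluster, with capillary genes such as Plvap, lay between 417.7 and 469.7 CPM, and those of the Sema3g Igf2 cluster were at 81.86, 57.35, 176.2 and 174.8 CPM.

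Enteric glia had a collagen set of their own. Besides Col18a1, Col5a3 and Col27a1 they held the highest level of Col28a1, a type VI relative known from Schwann cells, at 244.9, 314.5, 293 and 227.3 CPM, of Col16a1 at 340.7, 332, 342.6 and 312.4 CPM, and of Col20a1 at 111.5, 120.1, 149 and 175.6 CPM. Of the 7 genes between 10 and 100 CPM, 4 were highest in glia: Col11a1 (mean 78.2 CPM), Col4a4 (45.9), Col9a2 (41.0) and Col9a3 (19.5). The other 3 were Col6a4 and Col24a1 in crypt-associated fibroblasts and Col8a2 in the Apod Ptn cluster. Of the genes at 100 CPM or more, 17 of 25 had their highest class above the next in all libraries. Col2a1, Col4a3, Col6a6, Col7a1, Col9a1, Col10a1, Col11a2, Col17a1, Col19a1, Col22a1, Col25a1 and Col26a1 made up the group under 10 CPM; the highest of them in the stroma was Col22a1 at 8.366 CPM.

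Because fibroblasts carry so much collagen RNA, multiplets and free RNA can place it in other classes, so the collagens were set beside the fibroblast core list Dcn, Lum, Pdgfra and Dpt. In T cells, which are not known to make collagen, Col1a2 stood at 0.392% and Col3a1 at 0.410% of the all-fibroblast level, and Dcn at 0.384%. In glia the core list summed to 0.432% to 1.37% of the fibroblast level, while Col1a2 was at 7.85%, Col1a1 at 15.2%, Col3a1 at 15.3%, Col5a2 at 36.4%, Col6a3 at 25.5% and Col12a1 at 158%. The glial values were thus far above what the core list carried. In blood endothelial cells Col1a2 (0.732%) and Col3a1 (0.948%) lay close to Dcn (0.540%). Lymphatic endothelial cells had Col1a2 at 3.46%, Col3a1 at 3.50% and Dcn at 2.99%. In mural cells Dcn was at 2.16%, Col3a1 at 5.57%, Col1a2 at 8.35% and Col6a3 at 13.4%. Smooth muscle held more of the core list, 6.00% to 11.6%, and above it Col1a2 at 20.3%, Col3a1 at 34.7%, Col6a1 at 50.9% and Col12a1 at 74.7%.

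**Figure D3:**
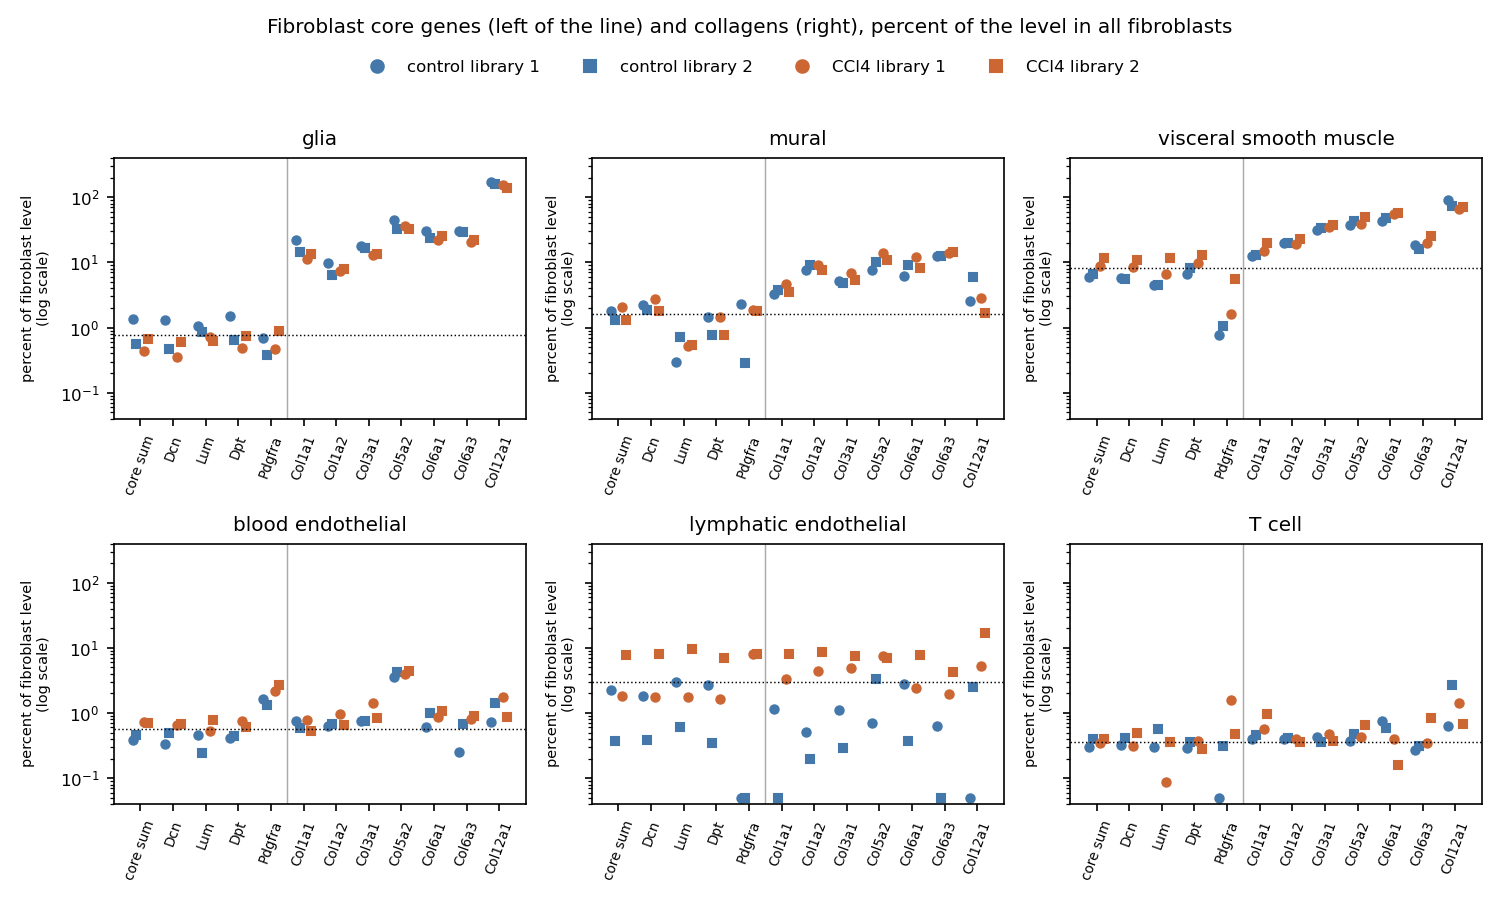
Levels of the fibroblast core list, its 4 genes and 7 collagens as percent of the level in all fibroblasts, on a log axis; each panel is a class and each point 1 library. In T cells and blood endothelial cells Col1a2 and Col3a1 sit beside Dcn, whereas in glia and smooth muscle the collagens lie above the core list.

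CCl4 and control libraries were then compared within each class, to ask whether collagen expression in the colon changes in this liver cirrhosis model. Counts were summed per class and library and tested with edgeR's quasi-likelihood test, adjusted by Benjamini-Hochberg over all genes tested in the class, and a gene is called at an adjusted p under 0.05. With 2 libraries against 2, an exact permutation test of a single value cannot go below p = 0.333, so the calls rest on the spread shared across genes by the model. No single fibroblast type had a called collagen. In lamina propria fibroblasts edgeR called 0 of 29 tested collagens, against 1.74% of all genes tested, and DESeq2 called 0, while 4 had an unadjusted p under 0.05, against 12.4% of all genes. The corresponding edgeR, DESeq2 and unadjusted counts were 0, 0 and 6 of 19 in adventitial fibroblasts (0.349% of all genes called, 7.67% unadjusted), 0, 0 and 3 of 24 in crypt-associated fibroblasts (0.0214% and 7.86%), and 0, 0 and 1 of 24 in submucosal fibroblasts (0.327% and 7.49%). For the Stc2 Dner cluster they were 0, 0 and 2 of 19 (0.944% and 8.78%), and for the Apod Ptn cluster 0, 0 and 4 of 22 (0.201% and 6.85%). The median log2 ratio of the tested collagens was 0.06 in lamina propria, 0.13 in adventitial, 0.06 in crypt-associated and 0.08 in submucosal fibroblasts, where the medians of all genes lay within 0.007 of 0. Without control library 2 edgeR called 1 collagen in lamina propria and 2 in adventitial fibroblasts.

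The type I and III chains themselves gave small ratios with intervals that bound them. In lamina propria fibroblasts the log2 ratio of CCl4 over control was 0.15 for Col1a1 (95% interval -0.03 to 0.33), 0.16 for Col1a2 (0.03 to 0.29) and 0.14 for Col3a1 (0.02 to 0.27). The adventitial type gave the largest of these ratios for Col1a2 and Col3a1, 0.28 (0.10 to 0.46, edgeR adjusted p = 0.237) and 0.26 (0.10 to 0.42, edgeR adjusted p = 0.219), beside 0.23 for Col1a1. In that type 10 of 19 collagens had both CCl4 libraries above both control libraries, against 19.1% of all genes in that direction, and 3 had both below, against 17.6%. Above and below counts were 8 and 2 of 19 in the Stc2 Dner cluster (18% and 19.7% of all genes). Submucosal fibroblasts had 9 and 4 of 24 (18.8% and 18%), and the lamina propria 8 and 4 of 29 (20.8% and 21.3%). Crypt-associated fibroblasts had 5 and 0 of 24 (19.4% and 18.8%), and the Apod Ptn cluster 2 and 6 of 22 (16.6% and 20%). For crypt-associated fibroblasts the ratios were 0.02, 0.10 and 0.21 for Col1a1, Col1a2 and Col3a1, and for the Apod Ptn cluster 0.04, 0.18 and 0.08; in both, leaving out 1 library turned the sign of Col1a1, and it did so too for Col1a2 in the first and Col3a1 in the second.

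**Figure D4:**
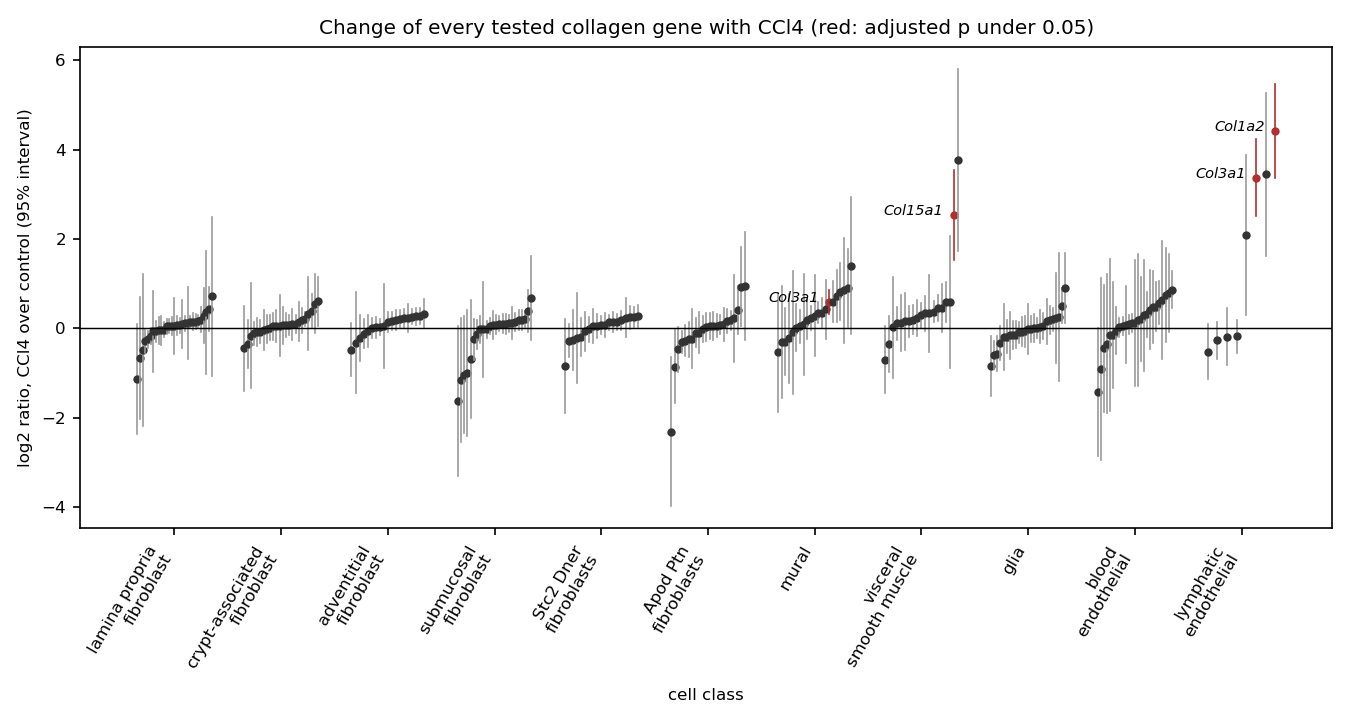
Log2 ratio of CCl4 over control for every tested collagen gene in each class, with its 95% interval; genes are ordered by ratio within a class, and red marks an adjusted p under 0.05. Median ratios of the fibroblast types lie near 0, while uncalled genes run from -2.31 to 0.95 in the Apod Ptn cluster and from -1.62 to 0.68 in submucosal fibroblasts. The called genes are Col1a2 and Col3a1 in lymphatic endothelial cells, Col3a1 in mural cells and Col15a1 in visceral smooth muscle.

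Col6a3 was the exception within fibroblasts, since its change differed between types. It was at 1050, 1004, 1296 and 1206 CPM in adventitial fibroblasts, a log2 ratio of 0.27. In the Apod Ptn cluster it was at 1043, 985.1, 806.7 and 795.1 CPM, a ratio of -0.31, and in the lamina propria at 476.3, 535.9, 426.7 and 427.7 CPM, a ratio of -0.24. The CCl4 libraries lay above the controls in the first type and below them in the others, while submucosal (0.05), Stc2 Dner (0.08) and crypt-associated fibroblasts (-0.11) stood between. An edgeR quasi-likelihood test of the type by treatment term gave Col6a3 an adjusted p of 0.0351 and called 1 of 32 tested collagens, against 0.184% of all genes. That call was lost without control library 2 (adjusted p = 0.146), CCl4 library 1 (0.459) or CCl4 library 2 (0.267), where the same edgeR fit was used, and without control library 2 Col4a5 was called in its place.

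With all fibroblasts pooled, 3 of 37 tested collagens were called, each of them higher, against 2.18% of all genes called. DESeq2 called 3 as well, Col12a1, Col4a5 and Col15a1, but not Col6a4 (DESeq2 adjusted p = 0.183). Col12a1 went from 277.5 and 302.1 to 366.4 and 384.6 CPM (log2 0.36, edgeR adjusted p = 0.0193). Col4a5 went from 38.2 and 36.46 to 52.06 and 58.6 CPM (0.55, adjusted p = 0.0102). Col6a4 went from 7.64 and 8.798 to 12.1 and 18.67 CPM (0.88, adjusted p = 0.0462). These genes are at their highest in lamina propria or crypt-associated fibroblasts, and the makeup of the pool moved with the groups: submucosal cells were 28.7% and 29.3% of control fibroblasts and 16.5% and 15.3% of CCl4 fibroblasts, and crypt-associated cells 10.3% and 9.46% against 13.5% and 14.3%. When each type was given the same weight in every library, the log2 ratio of the means fell from 0.37 to 0.12 for Col12a1, from 0.57 to 0.12 for Col4a5, and from 0.90 to 0.45 for Col6a4. For Col15a1 it went from 0.33 to 0.05 and for Col6a3 from -0.15 to 0.01. Col1a1, Col1a2 and Col3a1 moved less, from 0.17, 0.22 and 0.24 to 0.15, 0.16 and 0.18. None of these 3 was called in the main fit of the pool (adjusted p = 0.479, 0.187 and 0.126 by edgeR). Of 14 alternatives for each gene, 1 called Col1a1, 2 called Col1a2 and 3 called Col3a1 in the pool, and the ratios stayed above 0 in all. Within types, 1 of 14 alternatives called Col1a1 in the lamina propria. In adventitial fibroblasts 1 called Col1a1 and 1 called Col1a2. Without CCl4 library 2 the pooled calls of Col12a1, Col4a5 and Col6a4 were lost. Those of Col12a1 and Col6a4 were also lost without control library 1, and that of Col12a1 without CCl4 library 1. With doublets kept the calls of Col12a1 (log2 0.26, edgeR adjusted p = 0.0967) and Col6a4 (0.73, adjusted p = 0.0795) were lost. That of Col6a4 was also lost with stricter cells (edgeR adjusted p = 0.114), with cells holding core markers of another class removed (0.262) and at stromal resolution 2.0 (0.0509).

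Lymphatic endothelial cells gave the largest called changes. edgeR called 2 of 8 tested collagens, against 0.262% of all genes, and DESeq2 called 1. Col1a2 was at 17.26, 7.505, 182.2 and 363.3 CPM (log2 4.41, SE 0.50, edgeR adjusted p = 0.000165), and Col3a1 at 58.68, 15.01, 292.4 and 481.7 CPM (3.37, SE 0.41, edgeR adjusted p = 0.000287, DESeq2 adjusted p = 0.0992). Both CCl4 libraries were above both controls. The counts behind Col1a2 were 5, 2, 86 and 135, from 76, 63, 109 and 98 cells. Cells with 2 or more counts of the fibroblast core list made up 5.26%, 6.35%, 10.1% and 8.16% of the class, and in the CCl4 libraries they carried 98.8% and 98.5% of the Col1a2 counts. Without those cells Col1a2 was at 0, 8.46, 2.35 and 6.41 CPM and Col3a1 at 18.0, 16.9, 23.5 and 25.6 CPM. The core list summed to 2.25%, 0.374%, 1.82% and 7.72% of the fibroblast level in this class, with Pdgfra at 0 in both control libraries and at 8.18% and 8.10% in the CCl4 libraries. With those cells removed the fit called 0 collagens and Col1a2 no longer passed the count filter. With doublets kept, the ratios were 1.02 and 0.99 (edgeR adjusted p = 0.511 and 0.431). By contrast Col18a1 in this class was at 490.2, 506.6, 455.6 and 355.2 CPM with those cells and at 488.9, 537.5, 450.2 and 374.8 CPM without them.

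**Figure D5:**
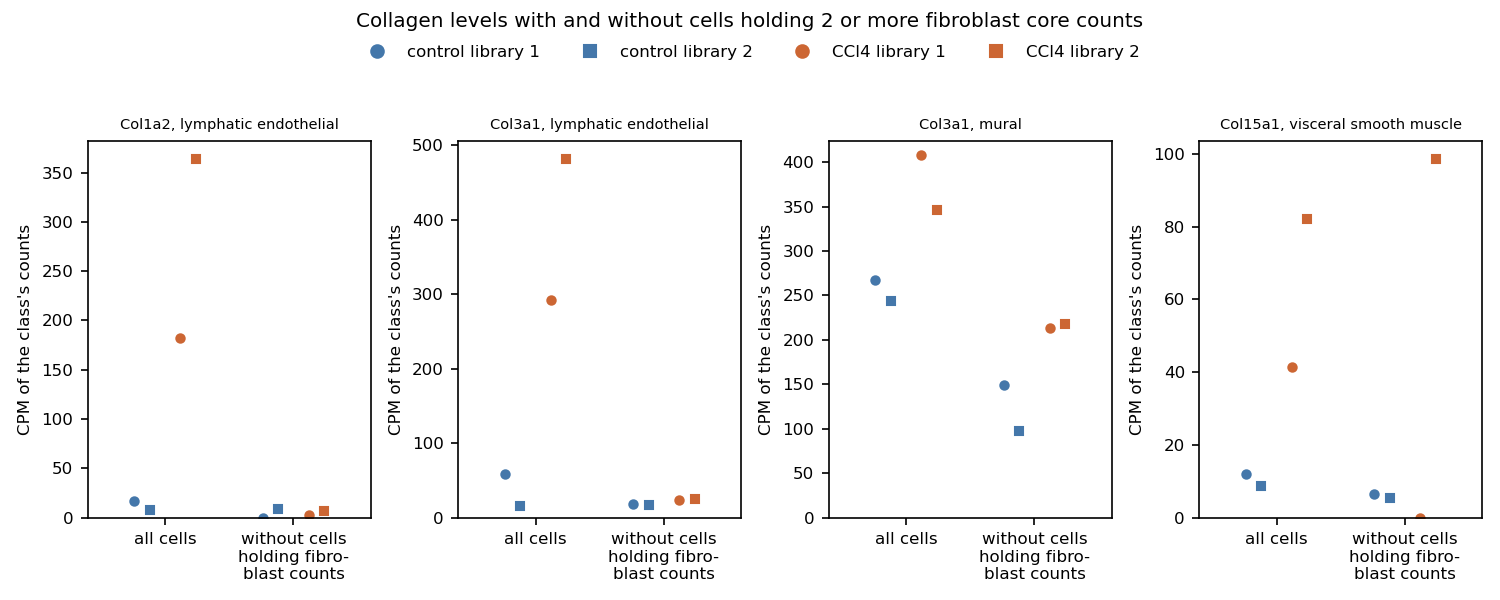
Levels of 4 called collagens in all cells of their class and after leaving out cells with 2 or more counts of the fibroblast core list; each point is 1 library and the axis is CPM from 0. Lymphatic Col1a2 falls from 182.2 and 363.3 to 2.35 and 6.41 CPM in the CCl4 libraries, while mural Col3a1 stays higher in both CCl4 libraries than in both controls.

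The mural class is mixed in its markers: its larger cluster, led by Pln and Nrip2 (798 cells), had a mean log2 ratio over the other stromal cells of 2.01 for the mural and 1.93 for the visceral smooth muscle markers, and kept the name of its cluster in the first clustering. In mural cells, which wrap vessels, edgeR called 1 of 21 tested collagens, against 1.01% of all genes, and DESeq2 called 1. Col3a1 rose from 266.9 and 244.3 to 407.8 and 346.5 CPM (log2 0.59, SE 0.13, edgeR adjusted p = 0.00638). Cells with fibroblast core counts were 10.04%, 14.67%, 15.28% and 10.04% of the class; without them Col3a1 was at 149, 97.3, 213.9 and 217.6 CPM, still without overlap (log2 0.83, edgeR adjusted p = 0.0289). The core list, at 1.80%, 1.31%, 2.06% and 1.32% of the fibroblast level, overlapped between the groups. The class joins 2 clusters with very different Col3a1: 1241, 1256, 1383 and 1282 CPM in the cluster led by Vtn and Rgs5, and between 42.22 and 77.17 CPM in the cluster led by Pln and Nrip2. The Vtn Rgs5 cluster supplied 20.43%, 23.55%, 33.33% and 28.19% of mural cells. At fixed cluster weights the log2 ratio of Col3a1 went from 0.56 to 0.16. Within the clusters edgeR called 0 of 12 collagens in Vtn Rgs5 cells (0% of all genes called, DESeq2 0) and 0 of 15 in Pln Nrip2 cells (0.91% of all genes, DESeq2 0), with 0 collagens at an unadjusted p under 0.05 in either, against 6.54% and 8.62% of all genes. The Col3a1 call was lost without control library 2 (edgeR adjusted p = 0.195) or CCl4 library 1 (0.472), with stricter cells (0.104) and with doublets kept (0.615). It was lost too with mixed clusters kept in their class (log2 0.37, edgeR adjusted p = 0.163), where Col13a1 and Col15a1 were called instead.

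Visceral smooth muscle had 1 called collagen of 19 tested, against 0.214% of all genes, and DESeq2 called 0. Col15a1 was at 11.96, 8.699, 41.32 and 82.13 CPM (log2 2.53, SE 0.48, edgeR adjusted p = 0.0285), from 9, 7, 28 and 48 counts. Cells with fibroblast core counts were 68.7%, 69.5%, 81.3% and 72.9% of this class, and without them Col15a1 was at 6.52, 5.52, 0 and 98.5 CPM, so the groups overlapped. The call was lost without CCl4 library 2 (edgeR adjusted p = 0.365) and with doublets kept (0.63). The core list itself stood at 6.00%, 6.60%, 8.85% and 11.6% of the fibroblast level and moved with the groups. A cluster that mixed smooth muscle and fibroblast genes was kept apart from the class; it held 5, 1, 35 and 27 cells and 3736, 3789, 4683 and 5234 CPM of Col3a1. When it was kept in the class, edgeR called 10 collagens there, among them Col1a1 (log2 1.27), Col1a2 (0.86) and Col3a1 (0.74).

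Glia and blood endothelial cells had no called collagen. In glia edgeR and DESeq2 each called 0 of 25, against 0.654% of all genes for edgeR, and 5 had an unadjusted p under 0.05, against 8.29% of all genes. In blood endothelial cells both called 0 of 25, against 0.571% for edgeR, with 2 at an unadjusted p under 0.05, against 9.64%. Separate endothelial clusters gave a pair of calls by edgeR. In the Aqp1 Selp cluster Col3a1 was at 50.59, 79.69, 219.4 and 219.4 CPM (log2 1.77, adjusted p = 0.0471), 1 of 9 collagens against 0.0668% of all genes. In the Sema3g Igf2 cluster Col13a1 was at 81.86, 57.35, 176.2 and 174.8 CPM (1.37, adjusted p = 0.0307), 1 of 9 against 0.244%, and DESeq2 called 0 there (adjusted p = 0.0990 for Col13a1). Over all blood endothelial cells the fibroblast core list was at 0.392%, 0.467%, 0.717% and 0.699% of the fibroblast level, so it moved with the groups, while with cells holding core markers of another class removed the Col3a1 ratio in the Aqp1 Selp cluster was 2.52 (edgeR adjusted p = 0.102). Leaving out control library 2 (edgeR adjusted p = 0.125) or either CCl4 library (0.160 and 0.0867) ended the Col13a1 call, as did stricter cells (0.0515) and the removal of cells with core markers of another class (0.131). In the Kdr Exoc3l2 cluster edgeR called 0 of 18, against 0.321% of all genes, and DESeq2 0, with 3 at an unadjusted p under 0.05, against 8.81%.

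Genes that make, modify, crosslink, bind or break down collagen were followed as 77 genes in 6 lists. In lamina propria fibroblasts 6 of 68 tested were called by edgeR, 4 up and 2 down, against 1.74% of all genes called in the class in either direction. Serpinh1, the collagen chaperone HSP47, fell from 1543 and 1662 to 1044 and 1089 CPM (log2 -0.59, edgeR adjusted p = 6.15e-05), and it was the only named call that held under every alternative in which it was fitted. Over the 30 named calls of collagens and list genes, 25 were lost in at least 1 fit with a library left out, where fewer libraries enter the test. Plod2, the lysyl hydroxylase that prepares telopeptide crosslinks, rose from 134.2 and 127 to 200.1 and 186.9 CPM (0.57). Sparc, a collagen-binding glycoprotein, rose by 0.28, and Tnc, tenascin C, fell by 0.32. Without CCl4 library 1 the edgeR adjusted p was 0.151 for Plod2, 0.0544 for Sparc and 0.0914 for Tnc, and without CCl4 library 2 it was 0.383 for Tnc. By list, folding and hydroxylation genes had 1 up and 1 down of 19 tested (Plod2 and Serpinh1), fibril partners 1 up of 10, fibrogenic and myofibroblast genes 2 up and 1 down of 13, and crosslinking (11), breakdown (9) and receptor genes (6) had 0 called. The median log2 ratio of the 68 was -0.05, against -0.01 for all genes in the class.

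Sparc rose in 4 of the fibroblast comparisons named here: from 6483 and 7588 to 8993 and 9067 CPM in adventitial fibroblasts (log2 0.35, edgeR adjusted p = 0.0248), by 0.33 in the Stc2 Dner cluster, by 0.28 in the lamina propria and by 0.30 in all fibroblasts, which include the others. The pooled Sparc call was lost without CCl4 library 1 (edgeR adjusted p = 0.140) or CCl4 library 2 (0.138) and with doublets kept (0.138). Timp2, an inhibitor of matrix metalloproteinases, fell by 0.37 in adventitial fibroblasts, and Fn1, fibronectin, rose by 0.78 in the Apod Ptn cluster. DESeq2 called neither Sparc (adjusted p = 0.236) nor Timp2 (0.0988) in adventitial fibroblasts, nor Sparc in the Stc2 Dner cluster (0.0538). With cells holding core markers of another class removed, the adventitial Sparc call was lost (edgeR adjusted p = 0.114). The Stc2 Dner Sparc call was lost with no low-count filter (edgeR adjusted p = 0.0935). Both adventitial calls were lost without CCl4 library 1 (edgeR adjusted p = 0.92 for each) or CCl4 library 2, that of Timp2 also without control library 2 (0.0691), the Stc2 Dner call when either control library, or CCl4 library 2, was left out, and the Fn1 call without CCl4 library 1. In all fibroblasts together 8 of 73 were called, 5 up and 3 down, against 2.18% of all genes in either direction. Among them were Postn (0.37), Mmp3 (-0.70) and Serpinh1 (-0.32), and each of these 3 was lost without CCl4 library 2. The Postn and Serpinh1 calls were also lost without CCl4 library 1, and that of Mmp3 without control library 1. DESeq2 did not call Mmp3 (adjusted p = 0.654). Postn was lost with doublets kept and Serpinh1 with stricter cells (edgeR adjusted p = 0.0635 and 0.05865). The makeup of this pool moved with the groups, and whether these ratios hold at fixed type weights was not tested. In glia Ctgf rose from 1026 and 1101 to 1583 and 1480 CPM (0.55). Tnc there fell from 166.1 and 114.7 to 58.93 and 71.1 CPM (log2 -1.10, lost without control library 1 or CCl4 library 1). The glial Tnc call was also lost with DESeq2 (adjusted p = 0.1065) and with stricter cells (edgeR adjusted p = 0.179). That of Ctgf was lost with doublets kept (edgeR adjusted p = 0.0665). Mural cells had Fn1 up by 1.57 (lost without CCl4 library 1) and Ctgf down (-0.67, lost without control library 2 or CCl4 library 2). The Fn1 counts were 21, 32, 117 and 50. Cells with fibroblast core counts held 90.5%, 81.25%, 65.0% and 58.0% of them. Without those cells Fn1 was at 2.27, 6.95, 41.8 and 25.4 CPM. With doublets kept its log2 ratio was 0.42 (edgeR adjusted p = 0.681), and DESeq2 did not call it. Per cluster edgeR called 0 of 7 fibril partners (Vtn Rgs5) and 0 of 6 (Pln Nrip2), against 0% and 0.91% of all genes. The Ctgf call was lost too with stricter cells (edgeR adjusted p = 0.301) and doublets kept (0.0693). In lymphatic endothelial cells Sparc (log2 1.78) and Postn (2.16) were called with Col1a2 and Col3a1; without the cells holding fibroblast core counts Sparc was at 46.7, 59.3, 72.7 and 28.8 CPM and Postn at 28.8, 63.5, 25.8 and 44.9 CPM, and the groups overlapped for both. In crypt-associated and submucosal fibroblasts and in smooth muscle edgeR called 0 of 65, 0 of 65 and 0 of 55, with 15, 10 and 9 at an unadjusted p under 0.05, against 7.86%, 7.49% and 8% of all genes. DESeq2 called 3, 0 and 0.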

How the data were processed

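Colon cells of 4 libraries, 2 per group, were measured by droplet single-cell RNA sequencing of polyadenylated RNA. The deposited matrices hold raw counts per gene and barcode, written by PISA per the file headers, on GRCm38 per the submitters' processing notes; which aligner was used was not found among the labels and headers. Gene positions come from the GENCODE annotation of that build, promoters from RefSeq.

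Kept barcodes had at least 200 genes and no more than 25% mitochondrial counts, and the 6% with the highest Scrublet score per library were removed as doublets, since its automatic threshold called 2 or fewer per library. Cells were clustered with scanpy 1.11.5 (2000 variable genes without collagens, 30 components, 15 neighbours, Leiden resolution 1.0), and stromal cells again. A name needed 3 markers raised by 1 log2 unit, with a lead of 0.5 over the next name, or within fibroblasts over other fibroblast types; stromal clusters that missed it (Pln Nrip2 and Sema3g Igf2) kept their first clustering's name, mural and blood endothelial; that rule was set after the data were seen. Clusters with core markers of another lineage at 20% and 1.5 times the depth were kept apart. Counts were summed per class and library (classes with 20 cells in each) and tested in edgeR 4.0.16 (TMM, filterByExpr, quasi-likelihood, Benjamini-Hochberg) on treatment alone; the code was tested on simulated data. DESeq2 1.42.0 was an alternative, beside other filters, doublets kept, clustering settings and libraries left out. The collagens, lists and comparisons were chosen with earlier results of these data known. Named with values were collagens at 100 CPM in a stromal class or called, and called list genes at 50 CPM, at most 6 per class; 1 list gene that met this rule is not reported here. Intervals cover library spread and counting error only.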

Additional observations from a re-analysis of the deposited data

Results flagged for a closer look

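The CCl4 change of Col6a3 differed between fibroblast types by a test of the difference itself (edgeR quasi-likelihood test of the type by treatment term, adjusted p = 0.0351), with log2 ratios from -0.31 in the Apod Ptn cluster to 0.27 in adventitial fibroblasts. Leaving out control library 2 (0.146) or either of the CCl4 libraries (0.459 and 0.267) ended that call.

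Within the crypt-associated class both CCl4 libraries lay on opposite sides of both controls for Col4a5 in its 2 clusters: the log2 ratio of the group means was 0.43 in the Procr Tagln Wif1 cluster (400.15 to 538.6 CPM) and -0.22 in the Agt Emid1 Wnt4 cluster (280.45 to 240.9 CPM). Within mural cells the same was seen for Col6a3, with 0.19 in the Vtn Rgs5 cluster (264.15 to 301.05 CPM) and -0.35 in the Pln Nrip2 cluster (106.55 to 83.41 CPM). These differences were not tested. With 2 libraries against 2, the groups did not overlap, in either direction, for 38.1% of all genes in the whole crypt-associated class. The share was 37.3% in the Vtn Rgs5 and 37.6% in the Pln Nrip2 cluster. How many of all genes part in opposite directions in 2 clusters of a class was not counted.

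Col8a1 was also detected outside the stroma, in goblet cells, at 99.34 and 123.5 CPM in control and 166.3 and 150.7 CPM in CCl4 libraries, a CCl4 mean of 158.5 CPM; goblet cells numbered 248, 260, 836 and 748.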

How the results depend on the processing

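Counts of called collagens per class (edgeR, adjusted p under 0.05) moved as follows. Leaving out 1 library at a time gave 0 to 2 in adventitial fibroblasts, 0 to 1 in lamina propria fibroblasts, 0 to 1 in blood endothelial cells, 2 to 4 in lymphatic endothelial cells, 0 to 1 in mural cells, 0 to 2 in smooth muscle and 2 to 8 in all fibroblasts. With no low-count filter there were 1 in blood endothelial cells, 1 in glia, 2 in smooth muscle and 5 in all fibroblasts. DESeq2 gave 1 in lymphatic endothelial cells and 0 in smooth muscle. Cells with core markers of another class removed, and doublets kept, each gave 0 in lymphatic endothelial cells and 0 in smooth muscle; doublets kept and the stricter cell filter (500 genes, 10% mitochondrial counts) each gave 0 in mural cells. Mixed clusters kept in their class, an alternative chosen after seeing the data, gave 2 in mural cells and 10 in smooth muscle. The replicate block gave 1 in blood endothelial cells, 0 in mural cells, 0 in smooth muscle and 8 in all fibroblasts. Same-numbered libraries showed no shared deviation (correlations of -0.064 to 0.04 over 11 classes, median -0.007). The labels do not say what the numbers mark, and so few libraries cannot settle whether they pair the libraries.

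Called pairs of list gene and class, over the 8 classes fitted in every setting, went from 16 to 27 with no low-count filter, 37 with mixed clusters kept and 11 to 25 with 1 library left out. The collagens called for a type by treatment difference numbered 0 to 1 with 1 library left out. Signs turned, all in changes that were not called in the report except Postn, for Col1a1 in crypt-associated fibroblasts (-0.0271 with collagens among the variable genes, -0.15 to 0.19 with 1 library left out), Col1a2 there (-0.0272 to 0.218), Col1a1 (-0.14 to 0.21) and Col3a1 (-0.0267 to 0.192) in the Apod Ptn cluster, Col6a3 in submucosal fibroblasts (-0.0129 to 0.102), and Postn in lymphatic endothelial cells (-0.35 with core-marker cells removed). Of 30 called named results 1 held under all alternatives that fitted it. DESeq2 did not call 9, doublets kept 15 and stricter cells 8, and the cause was not tested. The 9 leave out Col15a1 in smooth muscle and Fn1 in mural cells, which DESeq2 did not call either. Collagens at 100 CPM numbered 24 or 25 in every setting tried. At resolution 2.0 no cluster could be named submucosal, and the unnamed clusters have no counterpart in re-clustered settings. Summed counts were fewest in the Vtn Rgs5 mural cluster (165571 to 300098 per library) and also low in lymphatic cells (266491 to 471892), which limits what both can show.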

Other observations

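Interstitial cells of Cajal, the pacemaker cells of gut muscle, were too few for a test, with 23, 6, 7 and 13 cells in control libraries 1 and 2 and CCl4 libraries 1 and 2. Col23a1, a membrane collagen, was at 887.1, 971.4, 361.7 and 1072 CPM in them. Every library lay above the 67 CPM mean of visceral smooth muscle. Col6a1 in these cells was at 257.1, 301.5, 361.7 and 219.9 CPM, while Col3a1 varied from 33.5 to 1594 CPM over the libraries.

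Outside the stroma, Col14a1 was found in macrophages and monocytes at 59.47, 42.7, 41.34 and 45.98 CPM, and Col8a1 in enteroendocrine cells at 45.17, 43.8, 96.22 and 22.59 CPM. Of the 12 collagens under 10 CPM in the stroma, Col25a1 and Col19a1 had their highest mean in clusters that could not be named, at 20.31 and 14.48 CPM.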
